A study of Mus musculus with 6 samples.

Results

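The genes described here encode collagens, the triple-helical proteins that form most of the extracellular matrix. They were taken as every gene whose symbol has the form Col, a number, a and a number and that at least 1 probe set names alone, without the genes of basement membrane type IV collagen and without Col2a1, Col9a1, Col9a2, Col9a3 and Col11a2 of cartilage. This left 31 of the 18193 genes measured, each represented by its probe set with the highest mean over all samples. The rule itself used no difference between genotypes, but the set was chosen with earlier results of these data known. Although the rule leaves out the best known cartilage collagens, Col10a1, Col11a1 and Col27a1, which cartilage also expresses, remained in the set.

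Hopx-null lungs (Hopx -/-) were set against wild-type lungs (Hopx +/+), with 3 samples each. All 6 were lungs microdissected from mouse embryos at E16.5 (embryonic day), on a strain background labelled Mixed, and both groups shared that stage, background and RNA preparation. The labels call the samples biological replicates and do not say whether a sample is 1 embryo or a pool, nor which part of Hopx was deleted. Total RNA was hybridised to single-channel Affymetrix arrays, and expression values are on a log2 scale, where a difference of 1 is a doubling. Hopx encodes a small homeodomain protein that does not bind DNA itself and that marks type I alveolar cells.

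A collagen molecule is made of 3 chains that wind into a triple helix, and chains of different genes often share a molecule. Fibrillar collagens line up into the banded fibrils that give tissue its tensile strength, and other classes decorate these fibrils, form beaded filaments or nets, anchor epithelia to the tissue beneath or span the cell membrane. In the fetal lung, mesenchymal cells around the branching airways make most fibrillar collagen, and the fibrils, with elastin, carry the later alveolar walls.

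Both probe sets of Hopx were lower in Hopx-null lungs, and these 2 of 45037 (0.00444%) were the only ones called (limma, Benjamini-Hochberg, adjusted p = 0.000375 and 0.0228). The s_at probe set, which had the smaller p, read 4.59, 4.59 and 4.96 in Hopx-null lungs, against 10.96, 10.59 and 10.41 in wild-type lungs. The a_at probe set read 10.64, 10.35 and 10.47 in Hopx-null lungs, against 12.50, 12.44 and 12.26 in wild-type lungs. Lung epithelial markers (Epcam, Cdh1, Nkx2-1, Sftpc and Sftpb) had list means of 11.30 to 11.35 in Hopx-null lungs and 11.34 to 11.40 in wild-type lungs, above the arrays' upper quartiles of 9.02 to 9.05. Correlations between arrays were 0.991 to 0.995 within a genotype and 0.989 to 0.995 between genotypes. Eif2s3y, a gene of the Y chromosome, read 2.91, 2.88 and 3.05 in Hopx-null replicates 1 to 3, against 3.13, 11.72 and 11.56 in wild-type replicates 1 to 3. Wild-type replicates 2 and 3 thus carried Y-linked signal and the other samples did not, so genotype and sex were unbalanced. Signal at the 3′ end of control transcripts exceeded that at the 5′ end most in Hopx-null replicate 3, by 1.51 for actin and 1.72 for Gapdh on the log2 scale. The remaining 5 samples had 1.15 to 1.25 for actin and 1.42 to 1.60 for Gapdh.

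None of the 31 collagen genes passed the test between genotypes (limma with Benjamini-Hochberg adjustment over all probe sets, smallest adjusted p = 0.878). The background was 0.0055% of the 18193 genes, which is Hopx alone. At an unadjusted p under 0.05 there were 0 collagen genes, against 4.54% of all genes. Mean values were higher in Hopx-null lungs for 15 collagen genes and lower for 16, which is 48.4% higher against 52.2% of all genes. The median log2 difference, Hopx-null minus wild-type, was -0.00023 over the collagen genes and 0.01 over all genes. The mean of 22 collagen genes exceeded the median over probe sets, and 12 of these (54.5%) were higher in Hopx-null lungs, against 54.9% of all such genes. Their median difference was 0.02. For 12 of these 22 genes the 95% interval of the difference lay within 0.5 of 0, a change of at most 1.41-fold either way, whereas 72.7% of all genes above the median had so narrow an interval. Over all levels the interval was that narrow for 16 of 31 collagen genes, against 68.9% of all genes. Intervals of the remaining genes reached further.

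**Figure D1:**
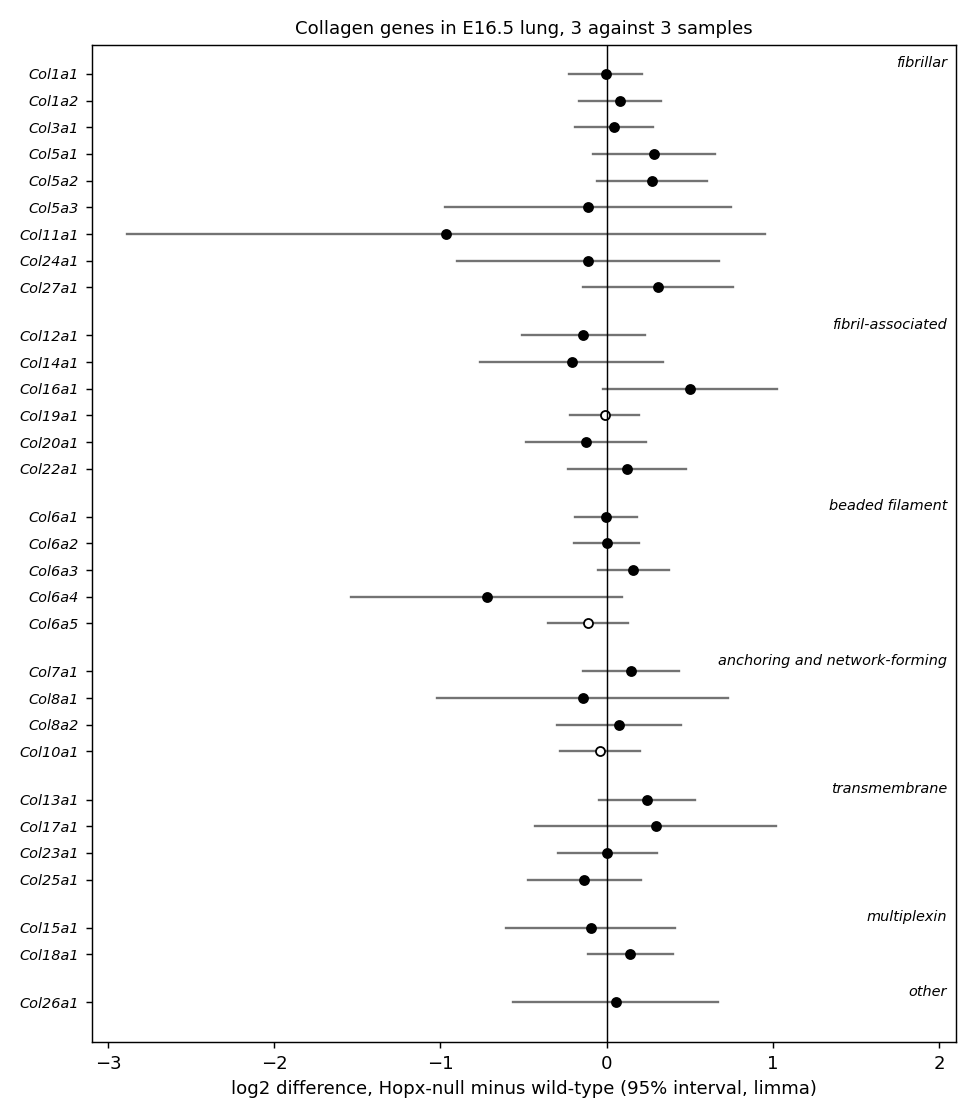
Log2 difference between 3 Hopx-null and 3 wild-type lungs for each of the 31 collagen genes, grouped by class, with 95% intervals from limma as lines. Open points have a mean below the lower quartile of all probe sets. All intervals include 0, and those of Col11a1 (-2.89 to 0.96) and Col6a4 (-1.54 to 0.09) reach furthest down.

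Start-site sequences were at hand for 25 of the 31 genes (RefSeq, build GRCm38.p6). They are shown for the chains Col1a2 and Col3a1, whose differences lay close to 0, and for Col11a1, whose difference was the largest in size. Capitals mark CCAAT, read on either strand (ATTGG on the other), which is the letter pattern of the CCAAT box bound by the general factor NF-Y, and TATAAA, the pattern of the TATA box, also sought on either strand (TTTATA). Neither pattern overlaps the other in these stretches, which are the 150 bases before the annotated start, written in the direction of transcription. Col1a2 lies at chr6:4505468-4505617, Col3a1 at chr1:45311388-45311537 and Col11a1 at chr3:114030390-114030539, all on the plus strand.
Col1a2: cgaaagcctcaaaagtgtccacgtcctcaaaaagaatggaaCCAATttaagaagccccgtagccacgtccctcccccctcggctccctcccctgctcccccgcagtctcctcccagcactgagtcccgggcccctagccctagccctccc
Col3a1: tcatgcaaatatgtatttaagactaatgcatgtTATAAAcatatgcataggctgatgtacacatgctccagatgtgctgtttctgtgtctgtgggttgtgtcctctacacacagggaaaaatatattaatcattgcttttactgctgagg
Col11a1: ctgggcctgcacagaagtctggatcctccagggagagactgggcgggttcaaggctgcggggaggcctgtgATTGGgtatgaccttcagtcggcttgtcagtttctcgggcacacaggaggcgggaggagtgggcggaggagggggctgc
Within the 250 bases before a start, 9 of the 25 collagen genes (36.0%) held CCAAT on either strand, against 37.5% of 27025 genes, and 4 of 25 (16.0%) held TATAAA, against 14.3%. These shares were near the background and describe letters only.

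Type I collagen, the main fibril of most connective tissue, is built from the products of Col1a1 and Col1a2. Col1a1 read 12.87, 12.86 and 12.83 in Hopx-null lungs, against 12.83, 12.99 and 12.77 in wild-type lungs. The groups overlapped, with the Hopx-null values inside the wild-type range. The difference was -0.01 (95% interval -0.23 to 0.21, limma), which is 0.855 to 1.16 on the linear scale. Col1a2 read 13.03, 13.03 and 13.09 in Hopx-null lungs, against 12.82, 13.13 and 12.96 in wild-type lungs, a difference of 0.08 (95% interval -0.17 to 0.32). Again all Hopx-null samples lay between the lowest and the highest wild-type sample. Col3a1, the single chain of type III collagen, which forms thin fibrils with type I in distensible organs, read 13.00, 12.96 and 12.94 in Hopx-null lungs, against 12.78, 13.06 and 12.91 in wild-type lungs. Its difference was 0.04 (95% interval -0.19 to 0.28). In these 3 genes wild-type replicate 2 was the highest of the 6 samples.

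Type V collagen sits inside type I fibrils and limits their width. Its chain Col5a1 read 11.65, 11.65 and 11.91 in Hopx-null lungs, against 11.38, 11.74 and 11.23 in wild-type lungs. Its partner chain Col5a2 read 12.41, 12.35 and 12.52 in Hopx-null lungs, against 12.01, 12.44 and 12.01 in wild-type lungs. In both genes wild-type replicates 1 and 3 lay below every Hopx-null sample and wild-type replicate 2 lay among them. The differences were 0.29 (SE 0.15) for Col5a1 and 0.27 (SE 0.14) for Col5a2, and neither passed (limma, Benjamini-Hochberg, adjusted p = 0.878). With 1 sample left out they ranged from 0.18 to 0.43 for Col5a1 and from 0.20 to 0.42 for Col5a2. The other 2 probe sets of Col5a1 differed by 0.22 and 0.19, and the other probe set of Col5a2 by 0.05. Col3a1 and Col5a2 are direct neighbours on chromosome 1, and their differences were 0.04 and 0.27. Col5a3, a further type V chain, read 5.34, 5.52 and 6.20 in Hopx-null lungs, against 5.14, 6.45 and 5.82 in wild-type lungs, a difference of -0.11 (95% interval -0.97 to 0.75) that was 0.21 without wild-type replicate 2.

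Col27a1, a fibrillar collagen found in developing cartilage, read 9.95, 10.02 and 9.83 in Hopx-null lungs, against 9.49, 10.05 and 9.33 in wild-type lungs. As in the type V pair, wild-type replicates 1 and 3 were below all Hopx-null samples. The difference was 0.31 (SE 0.19), and a second probe set gave 0.35. Leaving out wild-type replicate 3 gave 0.16, and leaving out replicate 2 of that genotype gave 0.52. Col24a1, a fibrillar collagen known from developing bone, read 6.63, 6.62 and 6.99 in Hopx-null lungs, against 6.28, 6.68 and 7.62 in wild-type lungs. Wild-type replicate 3 stood above and wild-type replicate 1 below the remaining samples. The difference of -0.11 (SE 0.33) was smaller than its error, and it was 0.27 without wild-type replicate 3.

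**Figure D2:**
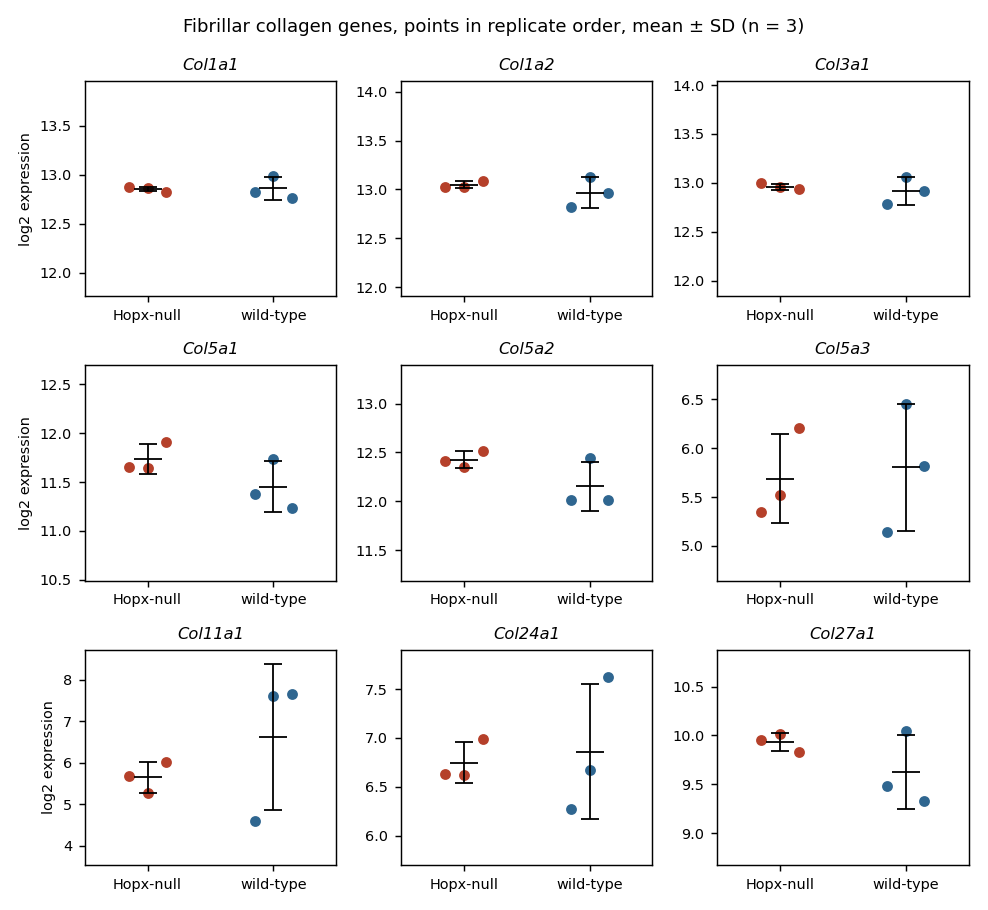
Log2 expression of the 9 fibrillar collagen genes in each lung, Hopx-null on the left of each panel and wild-type on the right, with points in replicate order and mean ± SD (n = 3 per genotype). Each panel has its own axis, which spans the same range in all panels but that of Col11a1. Points of both genotypes overlap in every panel, and wild-type replicates 2 and 3 of Col11a1 (7.61 and 7.66) stand above the other 4 samples.

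Col11a1, a fibrillar chain that nucleates thin fibrils in cartilage and in some other tissues, had the largest difference in size and the widest spread. It read 5.68, 5.27 and 6.01 in Hopx-null lungs, against 4.58, 7.61 and 7.66 in wild-type lungs. The 3 wild-type samples therefore held both the lowest and the 2 highest values, and the SD was 0.37 in Hopx-null lungs and 1.76 in wild-type lungs. The difference was -0.96 (95% interval -2.89 to 0.96) and did not pass (limma, Benjamini-Hochberg, adjusted p = 0.886). A second Col11a1 probe set read 5.41, 4.29 and 5.47 in Hopx-null lungs, against 3.91, 6.77 and 6.99 in wild-type lungs, the same pattern. The difference was -1.98 without wild-type replicate 1, and it was -0.47 or -0.44 when replicate 2 or 3 of that genotype was left out instead. With the Eif2s3y value as a covariate, which in effect sets the Hopx-null lungs against wild-type replicate 1, it was 1.14.

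Cartilage genes varied beside Col11a1. Col2a1, the main cartilage collagen, read 6.70, 4.98 and 7.38 in Hopx-null lungs, against 4.48, 9.57 and 9.67 in wild-type lungs, which puts the 6 samples in the order they had for Col11a1. The 15 cartilage markers had list means of 5.89, 5.41 and 6.15 in Hopx-null lungs, against 5.41, 7.07 and 7.32 in wild-type lungs, and 13 of the 15 had a lower mean in Hopx-null lungs. Matn3 and Epyc had means below the lower quartile of all probe sets, and the other 13 were above it. The pattern was not limited to cartilage. List means of 3 Schwann and neural markers were 7.26, 6.94 and 7.45 in Hopx-null lungs, against 6.85, 7.76 and 7.83 in wild-type lungs. Those of 5 skin markers were 5.66, 5.59 and 5.74, against 5.35, 5.95 and 5.92. Not every marker in these 2 lists followed its mean, and the lists were picked after their means were seen. Wild-type replicates 2 and 3, which were highest for Col11a1 and for the mean of the cartilage markers, are also those with Y-linked signal. Single markers differed from that mean. Sox9 was highest in Hopx-null replicate 1 (7.90), and Hapln1 was lowest in wild-type replicate 2 (10.29). Matn1 read 4.53 in Hopx-null replicate 3, above the 4.46 of wild-type replicate 2. In bulk tissue fewer cells of a type and less RNA per cell cannot be told apart, and the part of cartilage or of sex in the Col11a1 values was not tested. The 5 cartilage collagens left out by the rule had a median difference of -1.55, all 5 lower in Hopx-null lungs. Col10a1, the collagen of hypertrophic cartilage, lay below the lower quartile with a difference of -0.04.

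**Figure D3:**
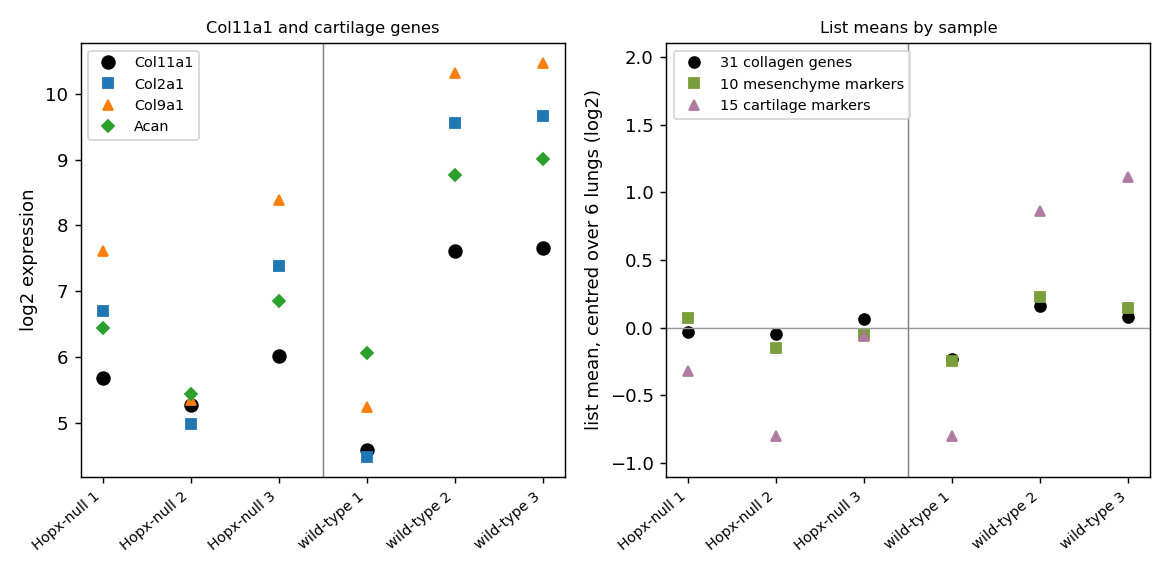
Left, log2 expression of Col11a1 and of the cartilage genes Col2a1, Col9a1 and Acan in each of the 6 lungs, Hopx-null on the left of the grey line. Right, mean of the 31 collagen genes, of 10 mesenchyme markers and of 15 cartilage markers in each lung, each centred on its mean over the 6 lungs (log2). Wild-type replicates 2 and 3 are highest for the cartilage genes, and wild-type replicate 1 is lowest for the collagen genes (8.41). It is also lowest for the mean of the mesenchyme markers (10.50), of which only Dcn and Lum were lowest there.

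Fibril-associated collagens, which coat the surface of fibrils, were higher in Hopx-null lungs for 2 of 6 genes. Col16a1, a member of this class that also contacts integrins, had the largest positive difference in the set. It read 8.75, 8.98 and 9.23 in Hopx-null lungs, against 8.09, 8.89 and 8.48 in wild-type lungs. Wild-type replicate 2 lay above Hopx-null replicate 1, so the groups overlapped. The difference was 0.50 (SE 0.22, 95% interval -0.02 to 1.03, limma, Benjamini-Hochberg, adjusted p = 0.878), and without wild-type replicate 1 it was 0.31. Col14a1, which regulates fibril growth, read 9.75, 9.72 and 9.81 in Hopx-null lungs, against 9.45, 10.05 and 10.41 in wild-type lungs. The narrow Hopx-null range lay inside the wild-type range, and the difference was -0.21 (SE 0.23), or -0.47 without wild-type replicate 1 and 0.01 when replicate 3 was left out. Col12a1, a fibril-associated collagen of dense connective tissue, read 8.81, 8.66 and 8.69 in Hopx-null lungs, against 8.63, 9.20 and 8.75 in wild-type lungs, a difference of -0.14 (SE 0.16). Wild-type replicate 2 alone stood above the rest, and without it the difference was 0.03. Differences were 0.12 for Col22a1, which is known from tissue junctions, -0.13 for Col20a1 and -0.01 for Col19a1, which lay below the lower quartile. Col26a1, which was put in no class, differed by 0.05.

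Type VI collagen forms beaded filaments around cells from the chains Col6a1, Col6a2 and Col6a3. Col6a1 and Col6a2 had the narrowest ranges over the 6 samples of all 31 genes. Col6a1 read 13.10, 13.13 and 13.17 in Hopx-null lungs, against 13.13, 13.17 and 13.12 in wild-type lungs. Col6a2, its direct neighbour on chromosome 10, read 12.89, 12.92 and 13.01 in Hopx-null lungs, against 12.94, 12.96 and 12.92 in wild-type lungs. From the lowest to the highest of all 6 samples, Col6a1 spanned 0.07 and Col6a2 0.12, and the 95% intervals of the differences were -0.19 to 0.18 for Col6a1 and -0.19 to 0.19 for Col6a2. Col6a3, the chain with the longest non-helical part, read 11.97, 11.90 and 11.90 in Hopx-null lungs, against 11.70, 11.70 and 11.89 in wild-type lungs. All 3 Hopx-null values lay above all 3 wild-type values, by a margin of 0.01 between the nearest samples. Its difference was 0.16 (SE 0.09, limma, Benjamini-Hochberg, adjusted p = 0.878).

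Col6a4, a further type VI chain, had the second largest negative difference. It read 5.64, 5.45 and 5.21 in Hopx-null lungs, against 5.85, 5.64 and 6.98 in wild-type lungs. The groups did not overlap, but the nearest samples differed by 0.0028, and wild-type replicate 3 stood apart from all others. The difference was -0.72 (SE 0.34, limma, Benjamini-Hochberg, adjusted p = 0.878), and without wild-type replicate 3 it was -0.31. Its neighbour on chromosome 9, Col6a5, lay below the lower quartile in every sample and differed by -0.11.

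Among the nets and anchors, Col8a1, a short-chain collagen of vessel walls and basement membranes, read 6.37, 6.49 and 6.98 in Hopx-null lungs, against 6.11, 7.57 and 6.60 in wild-type lungs. Its difference was -0.14 (SE 0.37), and it was 0.26 without wild-type replicate 2, the highest sample. Leaving out the lowest sample, replicate 1 of that genotype, gave -0.47. Its partner Col8a2 differed by 0.07 (SE 0.16). Col7a1, which forms the anchoring fibrils beneath squamous epithelia, differed by 0.15 (SE 0.12). These 3 genes had overlapping groups.

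Of the 4 collagens that span the cell membrane, Col13a1, a component of cell-matrix contacts, read 10.51, 10.48 and 10.54 in Hopx-null lungs, against 10.29, 10.47 and 10.05 in wild-type lungs. The Hopx-null values were close together and all above the wild-type values, by 0.01 at the nearest. The difference was 0.24 (SE 0.12, limma, Benjamini-Hochberg, adjusted p = 0.878), and it was 0.14 without wild-type replicate 3. Col17a1, the hemidesmosome collagen of basal epithelial cells, read 6.02, 5.79 and 5.67 in Hopx-null lungs, against 5.63, 6.12 and 4.85 in wild-type lungs. Wild-type replicate 3 was far below the others, and the difference of 0.30 (SE 0.31) was -0.05 without it. Col23a1 differed by 0.00 (SE 0.13) and Col25a1, known best from neurons and from motor nerve growth, by -0.13 (SE 0.14).

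The multiplexins are basement membrane zone collagens whose cleaved ends include endostatin, an inhibitor of vessel growth cut from the Col18a1 product. Col18a1 read 10.73, 10.76 and 11.03 in Hopx-null lungs, against 10.65, 10.72 and 10.72 in wild-type lungs. The groups did not overlap, with Hopx-null replicate 3 well above the rest and the nearest samples 0.01 apart. The difference was 0.14 (SE 0.11, limma, Benjamini-Hochberg, adjusted p = 0.879), and it was 0.05 without Hopx-null replicate 3, the sample with the most 3′ signal. A second Col18a1 probe set gave 0.12, and its groups overlapped. Col15a1 differed by -0.10 (SE 0.21) with overlapping groups. Over the whole set, groups did not overlap for 3 genes that were higher in Hopx-null lungs and for 1 that was lower, against a background of 6.21% of all genes higher and 4.31% lower.

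**Figure D4:**
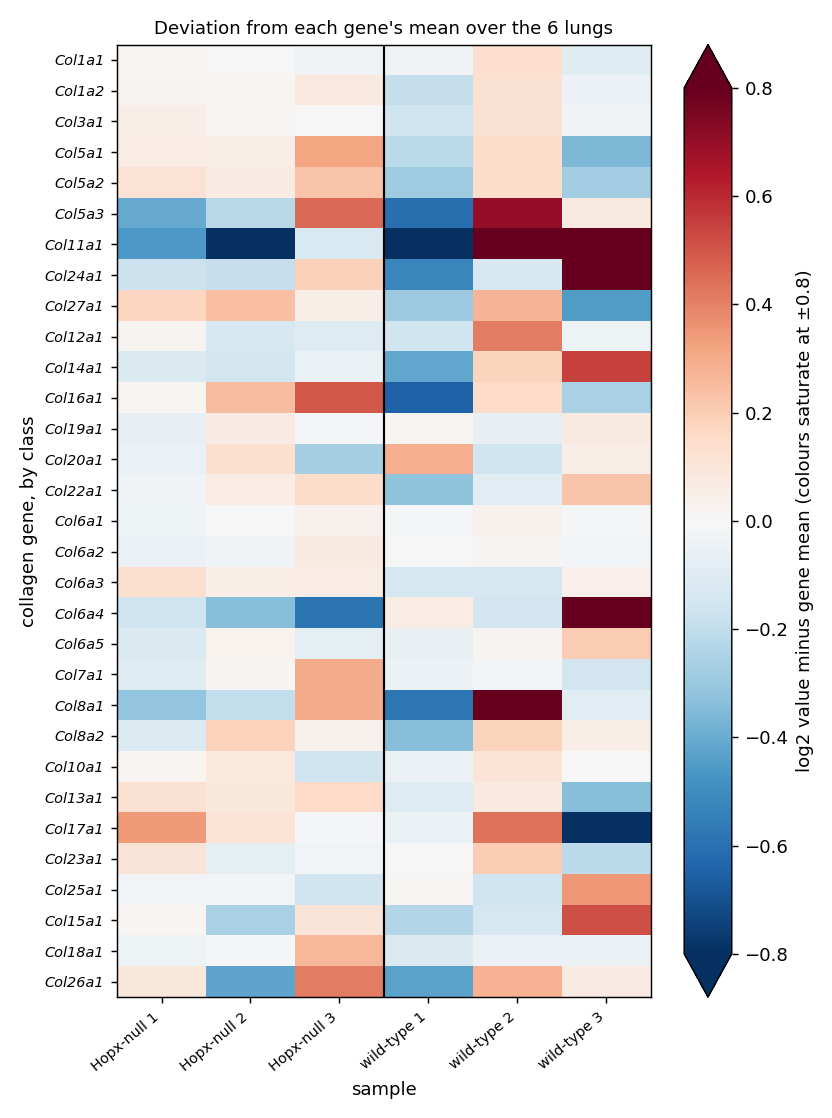
Log2 value of each of the 31 collagen genes in each lung minus that gene's mean over the 6 lungs, with the 3 Hopx-null lungs left of the line and the 3 wild-type lungs right of it. Red is above the mean and blue below, and colours saturate at 0.8. The column of wild-type replicate 1 holds the lowest value for 15 of the 31 genes. Neither genotype is red or blue throughout. For some single genes all 3 Hopx-null lungs lie on 1 side, above the mean for Col5a1 and Col5a2 and below it for Col6a4.

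Samples of the same genotype were not alike. Wild-type replicate 1 was the lowest of the 6 samples for 15 of the 31 collagen genes (48.4%), against 15.5% of all genes. Wild-type replicate 2 was the highest for 10 (32.3%, against 13.6% of all genes), and Hopx-null replicate 3 and wild-type replicate 3 for 9 each (29.0%, against 22.7% and 21.3% of all genes). The SD among wild-type lungs exceeded that among Hopx-null lungs for 25 of the 31 genes (80.6%), against 53.4% of all genes. The median SD of the collagen genes was 0.09 in Hopx-null lungs and 0.26 in wild-type lungs, and over all genes it was 0.13 in both. These shares are descriptions of 6 samples and carry no test.

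**Figure D5:**
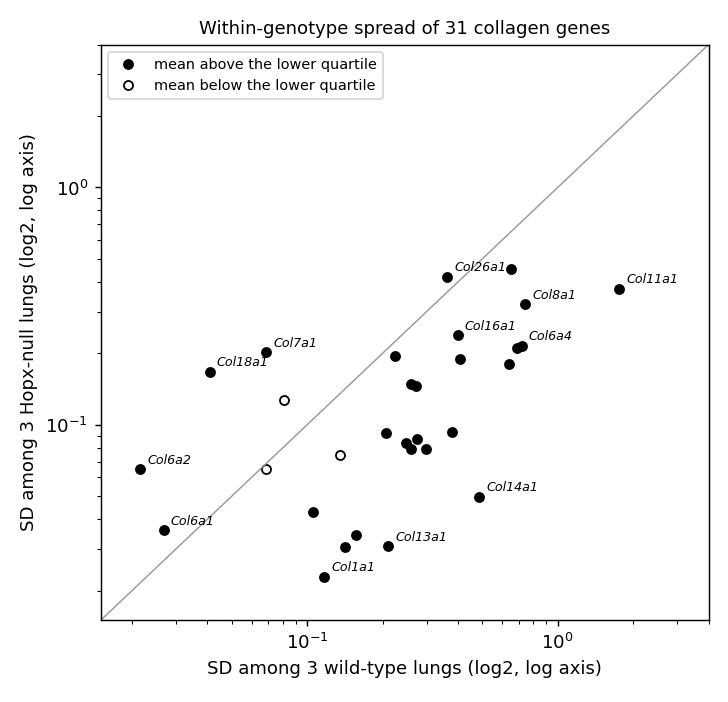
SD among the 3 Hopx-null lungs (vertical) against SD among the 3 wild-type lungs (horizontal) for each of the 31 collagen genes, on log axes in log2 units. The grey line marks equal spread, and open points have a mean below the lower quartile. Below the line lie 25 genes, with Col11a1 (0.37 in Hopx-null and 1.76 in wild-type lungs) furthest right.

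Fibroblast and mesenchyme markers did not share 1 order of the samples. The 10 markers had list means of 10.81, 10.59 and 10.69 in Hopx-null lungs, against 10.50, 10.97 and 10.88 in wild-type lungs, and the 31 collagen genes had means of 8.61, 8.59 and 8.71 in Hopx-null lungs, against 8.41, 8.80 and 8.72 in wild-type lungs. Both means were lowest in wild-type replicate 1 and highest in wild-type replicate 2. Dcn and Lum were the 2 of 10 markers that were lowest in wild-type replicate 1. Over the other 8 markers the means were 11.75, 11.60 and 11.56 in Hopx-null lungs, against 11.72, 11.67 and 11.60 in wild-type lungs. This puts wild-type replicate 1 second highest, but the 2 markers left out were picked after their low values there were seen. Tbx4 and Pdgfrb were the 2 of 10 markers that were highest in wild-type replicate 1 (11.38 and 10.64). They encode a transcription factor and a growth factor receptor of mesenchyme, and were named after their values were seen. The remaining markers were neither highest nor lowest in that sample. Without Col10a1, Col11a1 and Col27a1 the collagen mean was lowest in wild-type replicate 1, at 8.66, against 8.90 and 8.96 in the other wild-type lungs. Within the marker list, 3 of 10 had a higher mean in Hopx-null lungs, and all 10 had means above the lower quartile. Lum, a proteoglycan that binds collagen fibrils, read 5.67, 4.78 and 5.63 in Hopx-null lungs, against 3.51, 6.74 and 6.83 in wild-type lungs. Dcn, a related proteoglycan, read 8.44, 8.33 and 8.77 in Hopx-null lungs, against 7.72, 9.62 and 9.22 in wild-type lungs. The part of mesenchyme content in the collagen values was not tested. With the Eif2s3y value as a covariate, 27 of the 31 collagen genes were higher in Hopx-null lungs, with a median difference of 0.20 and none called, and this fit rests on wild-type replicate 1 for the wild-type side.

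Where a gene had several probe sets, these mostly gave the same direction. For 20 of the 31 genes there were 31 further probe sets, of which 23 had the sign of the chosen one. Of the 23 further probe sets above the lower quartile, 19 had that sign, and none differed from the chosen one by more than 0.25.

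Collagen chains need enzymes and helpers, which were measured as 8 lists of 110 genes, 102 of them measured. None of the 102 passed (limma, Benjamini-Hochberg, smallest adjusted p = 0.878). Means were higher in Hopx-null lungs for 62 and lower for 40, with a median difference of 0.06, against 0.01 over all genes. Higher genes made up 60.8%, against 52.2% of all genes. Of the 102 genes, 83 had means above the median over probe sets, and 54.9% of all genes above that median were higher. In Hopx-null lungs 8 genes (7.84%) lay above and 6 (5.88%) below the wild-type range without overlap, against 6.21% and 4.31% of all genes.

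Enzymes that hydroxylate proline and lysine in new chains were higher for 10 of 15 (median 0.07). Plod1, a lysyl hydroxylase, read 9.92, 10.20 and 10.09 in Hopx-null lungs, against 9.83, 9.26 and 9.68 in wild-type lungs, without overlap, a difference of 0.48 (SE 0.16). P4ha3, a prolyl hydroxylase subunit, differed by 0.27. Folding and export genes were higher for 5 of 11 (median -0.03), with Creb3l1, a transcription factor of matrix secretion, at -0.19 and the ion channel gene Tmem38b at -0.19. Genes of propeptide cleavage were higher for 6 of 8 (median 0.08). Only 5 of the 8 had means above the lower quartile, and Tll1 and Mep1b, both among the higher genes, lay below it. Pcolce2, an enhancer of the cleaving enzyme, differed by 0.34 and the protease Adamts3 by -0.29. None of these genes passed the test.

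The crosslinking enzymes were divided, 2 higher and 2 lower. Lox, which crosslinks collagen and elastin, read 12.09, 12.15 and 12.28 in Hopx-null lungs, against 12.39, 12.28 and 12.66 in wild-type lungs. Its groups were just apart, with a difference of -0.27 (SE 0.12, limma, Benjamini-Hochberg, adjusted p = 0.878), and Loxl3 differed by 0.23. Fibril-binding proteoglycans and glycoproteins were higher for 11 of 20 (median 0.02), with Prelp at 0.61 and Dcn at -0.34. Collagen receptors were higher for 7 of 11 (median 0.04), with the uptake receptor Mrc2 at 0.34 and the integrin chain Itga2 at 0.24.

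Proteases that degrade collagen and their inhibitors were higher for 10 of 16 (median 0.05). Mmp13, Mmp1a and Mmp3, all among the higher genes, had means below the lower quartile. Mmp2, which cleaves denatured collagen, read 12.48, 12.34 and 12.52 in Hopx-null lungs, against 11.73, 12.06 and 11.92 in wild-type lungs. The groups did not overlap and the gap between the nearest samples was 0.28. The difference was 0.54 (95% interval 0.27 to 0.82), which did not pass over all probe sets (limma, Benjamini-Hochberg, adjusted p = 0.878). Mmp16, a membrane-bound protease, differed by 0.41. Genes of TGF-beta signalling, a strong inducer of collagen genes, were listed together with the transcription factors Twist1, Scx, Prrx1, Tcf21 and Tbx4. Of the 17 genes in this mixed list 11 were higher (median 0.10), with Twist1 at -0.64 and Scx at 0.50. The ligand genes Tgfb1, Tgfb2 and Tgfb3 differed by 0.13 (SE 0.08), 0.25 (SE 0.25) and 0.39 (SE 0.15). The 6 lower genes of this list included Smad7 at -0.23, Tgfbr1 at -0.16 and Ccn2 at -0.15, and none of the 17 passed.

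The 6 type IV collagen genes outside the set had a median difference of 0.00, 3 higher and 3 lower, and none passed.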

How the data were processed

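Samples of E16.5 mouse lung, 3 Hopx-null and 3 wild-type, were measured on 1 array each. Values were deposited on a log scale, taken as log2 from their range and from the use of RMA. The submitters' processing notes name RMA and Partek 6.6 without saying what each did, and no header or label gives a filter. RMA equalises the distributions of the arrays, which would hide a shift of most transcripts. The labels' protocols describe poly(T)-primed labelling, which favours 3′ ends. Of 45101 probe sets, 64 controls were left out and 45037 tested, of which 34945 named 1 gene, 932 several and 9160 none. Levels of different probe sets were used only to choose a gene's probe set and to sort genes and marker lists by the quartiles of all probe sets, since probe sets differ in affinity.

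Genotypes were compared in R 4.3.3 with limma 3.58.1 (lmFit, then eBayes, on all 6 samples), with Benjamini-Hochberg adjustment over all probe sets and a threshold of 0.05. The procedure was tested on simulated data with independent noise and planted changes larger than any collagen difference here. That test therefore does not address differences as small as those of the collagen genes. Lists were described by counts and medians only. Precision is limited by the number of arrays, since exact permutation of 3 and 3 samples gives no two-sided p below 0.1.

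All collagen genes are accounted for. Values in every sample are given for the fibrillar genes, the 5 largest differences in each direction and genes above the median without overlap between groups, and each list of helper genes is represented by the 2 genes that differed most. Lum, Tbx4, Pdgfrb, Col2a1, Sox9, Hapln1, Matn1, Eif2s3y, Tgfb1, Tgfb2, Tgfb3, Smad7, Tgfbr1 and Ccn2 were added after their values were seen. The collagen genes and the lists were chosen with earlier results of these data known. The alternatives covered normalization, dim probe sets, the variance model, array weights, a replicate block, the Eif2s3y covariate, the choice of probe set, the threshold and each sample left out. Leaving out Col10a1, Col11a1 and Col27a1, and the marker mean without Dcn and Lum, were added after seeing the data.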

Additional observations from a re-analysis of the deposited data

How the results depend on the processing

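No collagen gene was called under any alternative run, whether each sample was left out, the threshold was set at 0.1 or the probe sets were filtered. The number of probe sets called over the whole array was 2, and it was 1 with the replicate block, 1 with the Eif2s3y covariate and between 1 and 23 with 1 sample left out. The collagen median was -0.00023, and it ranged from -0.01 to 0.11 with 1 sample left out, while 11 to 22 of the 31 genes were higher. The Eif2s3y covariate moved the median to 0.20 and the count of higher genes to 27, against 15 without it. Without Col10a1, Col11a1 and Col27a1, 14 of 28 genes were higher. Of 484 recomputed differences of single genes, 15 moved by more than limma's SD for the gene. That SD is the gene's spread within genotypes, drawn towards the spread of all probe sets. Of these 15, 14 moved under the Eif2s3y covariate and 1 (Col11a1) without wild-type replicate 1. The sign stayed the same for 13 of 31 genes whichever sample was left out. Deviations of same-numbered samples correlated at -0.10, -0.12 and 0.18 for numbers 1 to 3. Hopx-null replicate 1 with wild-type replicate 2 gave 0.24, and Hopx-null replicate 2 with wild-type replicate 1 gave 0.17. The remaining pairs of unlike number gave -0.15 to -0.05. Whether samples were paired in another way was not tested. The replicate block gave the collagen genes a smallest adjusted p of 0.924 (limma, Benjamini-Hochberg). Differences of genes near background are compressed.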
